A study of Mus musculus with 10 samples.

Results

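The genes described here are 10 transcription factors that shape the identity of dendritic cells: Zbtb46, Id2, Zfp366, Prdm1, Bcl6, Tcf4, Bcl11a, Runx3, Nfil3 and Spib. They were chosen by symbol, all 10 were found among the 24385 symbols of the RNA count table, and all 10 passed the filter on low counts that left 13075 genes to test. The cells were bone marrow-derived dendritic cells (BMDCs) of female wild-type C57BL/6 mice aged 8 to 10 weeks, grown for 7 days in medium with 20 ng/mL of the growth factor GM-CSF. Non-adherent immature cells were taken on day 6 and kept for 24 h with AMLE, an apple mango leaf extract, at 400 µg/mL, or with 0.04% DMSO as the vehicle. RNA was sequenced in 3 AMLE and 3 DMSO libraries, and open chromatin was mapped by ATAC-seq, which reads where a transposase can insert, in 2 AMLE and 2 DMSO libraries of 100000 cells each. The labels do not say that the replicates were separate mice or cultures, and p-values therefore cover the spread between these libraries, technical or not.

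Dendritic cells divide into conventional cells of type 1 (cDC1) and type 2 (cDC2), which take up antigen and present it to T cells, and plasmacytoid cells, which make type I interferon. In mice, Nfil3 and Id2 act on the path to cDC1, Tcf4 holds the plasmacytoid state, and Id2 works by binding E proteins such as TCF4 and keeping them off DNA. Prdm1 and Bcl6 encode repressors known to act against each other in B cells. Cultures grown with GM-CSF hold a mixture of dendritic cells, macrophage-like cells and granulocyte precursors.

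On the main axis of variation over all genes, which took 76.6% of the variance, AMLE replicates 1 to 3 stood at -38.3, -46.5 and -23.0, against 34.7, 31.1 and 42.0 for DMSO replicates 1 to 3. Replicate 3 was thus the AMLE library nearest to DMSO. Results that rest on it are given with and without it. Totals were 26010455 to 34208286 counts per RNA library.

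Of the 10 factors, 7 rose after AMLE and none fell. The larger rises were those of Prdm1 (3.92-fold), Zfp366 (3.05-fold) and Nfil3 (2.37-fold), followed by Zbtb46 (1.84-fold), Tcf4 (1.64-fold), Runx3 (1.39-fold) and Id2 (1.30-fold). Bcl6, Bcl11a and Spib did not pass the test. The share of all tested genes that rose was 23.0%, and 25.6% fell. A rise of at least 2-fold was seen in 3 of the 10 factors, against 5.52% of all tested genes. The median log2 fold change (AMLE minus DMSO) of the 10 was 0.59, against -0.01 over all tested genes. The 10 factors were chosen with earlier results of these data known, so these counts and this median are not independent of them. Calls are by edgeR's quasi-likelihood test with Benjamini-Hochberg adjustment over all tested genes, at an adjusted p below 0.05, and no factor was called lower by DESeq2 or limma-voom. Libraries hold the RNA of many cells, so more or fewer cells of one type and more or less RNA per cell cannot be told apart.

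**Figure D1:**
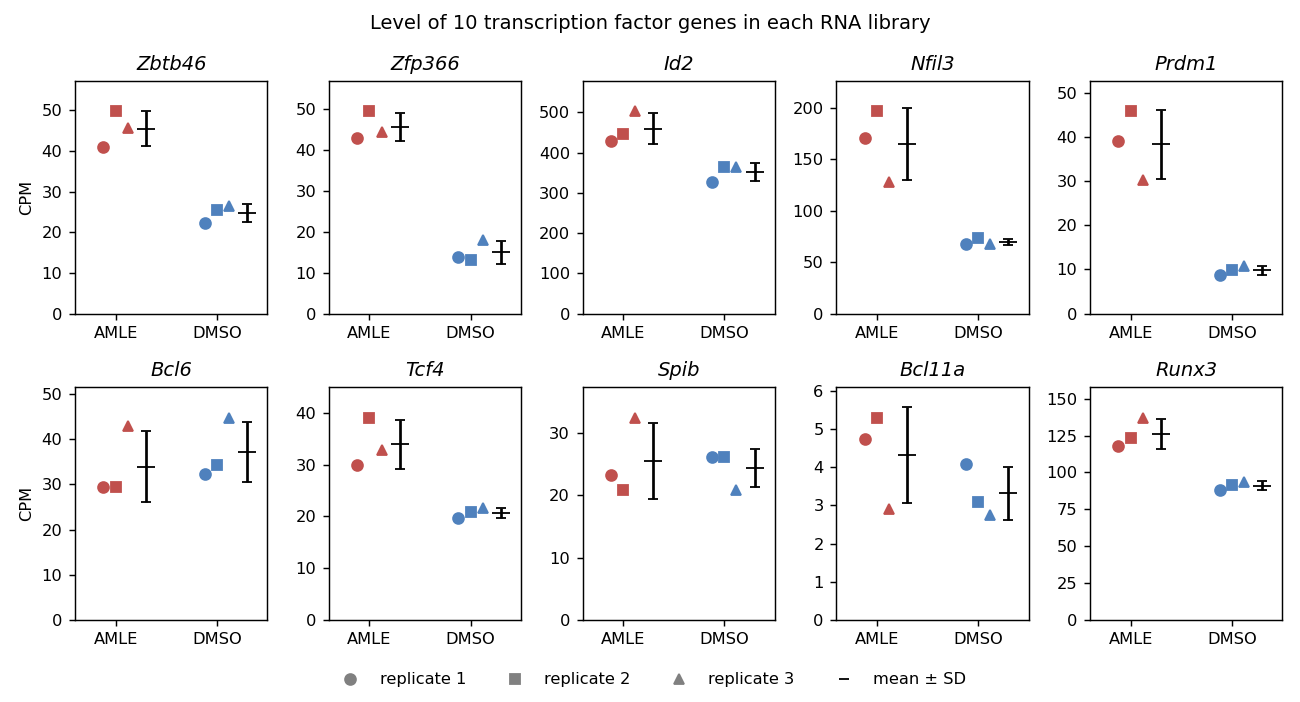
Level of each of the 10 factors in CPM (linear axis from 0, a separate scale for each gene) in every RNA library, with AMLE on the left and DMSO on the right. Points are the 3 libraries per group, and the black marks beside them are the mean with the SD; the groups are apart for 7 factors and overlap for Bcl6, Bcl11a and Spib.

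Zbtb46 encodes a zinc finger protein that in mice marks conventional dendritic cells and their committed precursors and is largely absent from macrophages. It had 41.0, 49.7 and 45.7 CPM (counts scaled to the library total) in AMLE replicates 1 to 3, against 22.3, 25.4 and 26.6 CPM in DMSO replicates 1 to 3. Every AMLE library lay above every DMSO library. The means were 45.5 ± 4.35 CPM in AMLE and 24.8 ± 2.19 CPM in DMSO (SD, n = 3 each), with a log2 fold change of 0.88 ± 0.09 (SE; edgeR adjusted p = 0.000398). Levels of the factors are compared within a gene and not ranked between genes, because CPM does not account for transcript length. List sums and the most abundant gene of a list, given below, are by CPM without regard to length.

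Zfp366 encodes DC-SCRIPT, a zinc finger protein found in dendritic cells, which in human dendritic cells is described to restrain the cytokine gene IL10 and to act on the phosphatase gene DUSP4. It had 42.9, 49.5 and 44.5 CPM in the AMLE libraries, against 13.8, 13.1 and 18.1 CPM in the DMSO libraries. The groups did not overlap, and the lowest AMLE library was above the highest DMSO library by more than either group's range. The means were 45.6 ± 3.44 CPM in AMLE and 15.0 ± 2.73 CPM in DMSO (SD, n = 3 each), a log2 fold change of 1.61 ± 0.13 (SE; edgeR adjusted p = 0.000149). Dusp4 itself had 14.1 ± 4.87 CPM in AMLE and 3.34 ± 0.302 CPM in DMSO (SD, n = 3 each).

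Prdm1 encodes BLIMP-1, the zinc finger repressor that drives plasma cell formation and also acts in myeloid cells. Its level was 39.0, 45.8 and 30.2 CPM in AMLE replicates 1 to 3, against 8.74, 9.90 and 10.7 CPM in DMSO replicates 1 to 3. All AMLE libraries were high, with replicate 3 the lowest of them, and the groups did not overlap. The means were 38.3 ± 7.81 CPM in AMLE and 9.79 ± 1.01 CPM in DMSO (SD, n = 3 each). The log2 fold change was 1.97 ± 0.16 (SE; edgeR adjusted p = 0.000189).

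Bcl6 encodes the zinc finger repressor of germinal centre B cells, which in mice is also needed for part of the conventional dendritic cells. It had 29.3, 29.4 and 43.0 CPM in the AMLE libraries, against 32.4, 34.3 and 44.8 CPM in the DMSO libraries. The groups overlapped, replicate 3 was the highest in both, and the AMLE library was below the DMSO library of the same number in all 3 pairs. The log2 fold change was -0.13, with a 95% interval from -0.58 to 0.31 (edgeR adjusted p = 0.575). Means were 33.9 ± 7.89 CPM in AMLE and 37.2 ± 6.68 CPM in DMSO (SD, n = 3 each). Leaving out DMSO replicate 3 turned the value to 0.019 (edgeR adjusted p = 0.942).

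The number of Prdm1 reads per Bcl6 read, a ratio that needs no scaling of libraries, was 1.33, 1.56 and 0.702 in AMLE replicates 1 to 3, against 0.270, 0.288 and 0.240 in DMSO replicates 1 to 3. The AMLE ratios were all above the DMSO ratios. Their log2 difference was 2.10 (4.27-fold), with an exact two-sided permutation p of 0.1, the smallest that 3 against 3 libraries can give.

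The bases just before the start of both genes are shown because the chromatin there was open or held a site for one of the factors themselves. The sequences are RefSeq's, build GRCm38.p6 (the same as mm10), read 5′ to 3′ on the gene's own minus strand and ending next to the start of transcription. They lie at chr10:44458749-44458998 for Prdm1 and, for the inner of 2 annotated starts of Bcl6, at chr16:23981284-23981533. Capitals mark the letters GAGGAAG (a PU-box, bound by ETS proteins such as SPI1 and SPIB), CAGGTG (an E-box, bound by E proteins) and TGANTCA (an AP-1 site) in Prdm1, and TTCCTNGAA (the BCL6 site) in Bcl6.
Prdm1: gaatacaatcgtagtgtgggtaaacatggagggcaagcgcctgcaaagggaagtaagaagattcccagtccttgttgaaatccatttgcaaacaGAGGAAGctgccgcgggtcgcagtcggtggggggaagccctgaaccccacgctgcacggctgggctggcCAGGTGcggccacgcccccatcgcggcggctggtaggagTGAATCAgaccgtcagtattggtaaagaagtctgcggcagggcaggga
Bcl6 inner start: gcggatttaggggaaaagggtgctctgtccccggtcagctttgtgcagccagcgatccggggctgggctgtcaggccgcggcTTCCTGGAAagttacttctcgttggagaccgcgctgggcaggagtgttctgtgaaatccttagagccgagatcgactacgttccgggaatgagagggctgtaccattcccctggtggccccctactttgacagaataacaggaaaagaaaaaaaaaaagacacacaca
In Prdm1 the PU-box began 156 bases before the start, the E-box 87 and the AP-1 letters 48. In Bcl6 the letters of its own site began 168 bases before the start. No 2 matches overlapped.

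Nfil3 encodes a basic leucine zipper protein that in mice stands upstream of Id2 in cDC1 and represses Zeb2. It had 170.4, 197 and 128 CPM in AMLE replicates 1 to 3, against 67.7, 73.2 and 68.0 CPM in DMSO replicates 1 to 3. The groups did not overlap, and AMLE replicate 3 was again the lowest of its group. The means were 165 ± 34.7 CPM in AMLE and 69.6 ± 3.08 CPM in DMSO (SD, n = 3 each), a log2 fold change of 1.25 ± 0.15 (SE; edgeR adjusted p = 0.00074). Its promoter is shown as the extreme of the set in base composition, with 81.6% G or C and 43 CpG in 250 bases, against medians of 52.4% and 6 over 32851 promoters in the RefSeq table. It lies at chr13:52981040-52981289 on the minus strand of GRCm38.p6, and it held none of the motifs searched, so it has no capitals.
Nfil3: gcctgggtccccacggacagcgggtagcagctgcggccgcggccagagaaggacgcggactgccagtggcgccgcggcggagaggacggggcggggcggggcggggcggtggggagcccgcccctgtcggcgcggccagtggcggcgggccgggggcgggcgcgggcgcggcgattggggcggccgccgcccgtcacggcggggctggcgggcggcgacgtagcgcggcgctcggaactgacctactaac

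Id2 encodes a helix-loop-helix protein without a DNA-binding region. It had 430.2, 445 and 503 CPM in the AMLE libraries, against 327, 366 and 364 CPM in the DMSO libraries. The AMLE libraries were all above the DMSO libraries, with AMLE replicate 3 the highest. The means were 459 ± 38.3 CPM in AMLE and 352 ± 22.0 CPM in DMSO (SD, n = 3 each), a log2 fold change of 0.38 ± 0.08 (SE; edgeR adjusted p = 0.00557).

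Zeb2, which encodes a repressor on which NFIL3 acts and which supports the plasmacytoid and cDC2 fates in mice, had 167 ± 22.5 CPM in AMLE and 152 ± 3.72 CPM in DMSO (SD, n = 3 each) and did not pass the test (log2 fold change 0.14; edgeR adjusted p = 0.251). The number of Nfil3 reads per Zeb2 read was 1.05, 1.33 and 0.667 in AMLE replicates 1 to 3, against 0.444, 0.496 and 0.439 in DMSO replicates 1 to 3. The AMLE ratios lay above all DMSO ratios, with a log2 difference of 1.09 (2.13-fold; exact two-sided permutation p = 0.1).

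Tcf4 encodes the E protein E2-2, which keeps plasmacytoid cells in their state. Its level was 29.8, 39.1 and 32.7 CPM in the AMLE libraries, against 19.7, 20.8 and 21.6 CPM in the DMSO libraries. The groups did not overlap, and AMLE replicate 2 was the highest. The means were 33.9 ± 4.74 CPM in AMLE and 20.7 ± 0.951 CPM in DMSO (SD, n = 3 each), a log2 fold change of 0.72 ± 0.10 (SE; edgeR adjusted p = 0.0014). Id2 and its binding partner Tcf4 thus rose in the same libraries. The number of Id2 reads per Tcf4 read was 14.4, 11.4 and 15.4 in AMLE replicates 1 to 3, against 16.6, 17.6 and 16.9 in DMSO replicates 1 to 3. The AMLE ratios were all lower, with a log2 difference of -0.32 (0.80 of the DMSO ratio; exact two-sided permutation p = 0.1).

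**Figure D2:**
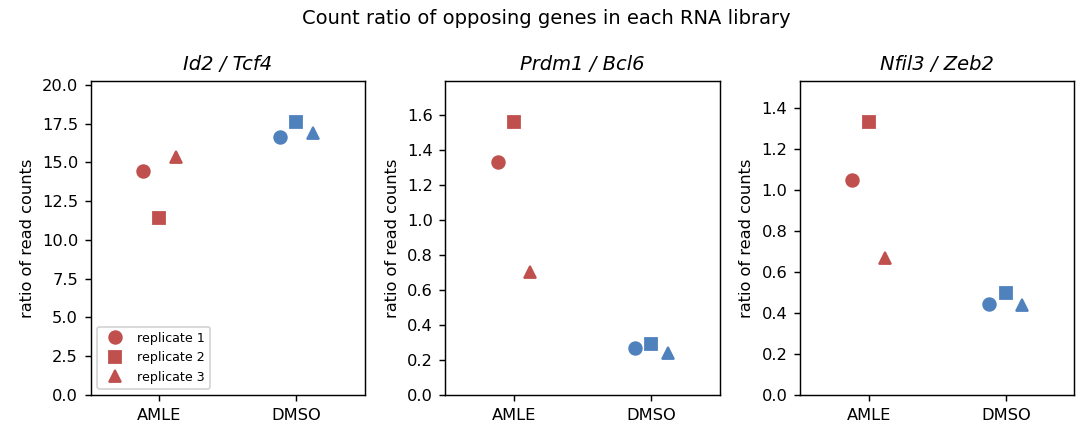
Reads of Id2 per Tcf4 read, of Prdm1 per Bcl6 read and of Nfil3 per Zeb2 read in each RNA library (linear axes from 0), AMLE on the left and DMSO on the right, with 1 point per library. The Prdm1 and Nfil3 ratios are higher and the Id2 ratio is lower in all 3 AMLE libraries, and AMLE replicate 3 is the closest to DMSO in each.

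Spib encodes an ETS protein of plasmacytoid cells and B cells. It had 23.3, 20.9 and 32.5 CPM in AMLE replicates 1 to 3, against 26.1, 26.3 and 20.9 CPM in DMSO replicates 1 to 3. The AMLE library was the lower in the pairs numbered 1 and 2 and the higher in pair 3, and the groups overlapped. The log2 fold change was 0.06, with a 95% interval from -0.35 to 0.48 (edgeR adjusted p = 0.781). Means were 25.6 ± 6.15 CPM in AMLE and 24.4 ± 3.07 CPM in DMSO (SD, n = 3 each). Without AMLE replicate 3 the value was -0.13 (edgeR adjusted p = 0.356), without DMSO replicate 3 it was -0.04 (adjusted p = 0.885), and without both it was -0.24 (adjusted p = 0.0272), so that Spib was then called lower.

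Bcl11a encodes a zinc finger protein of B cells and plasmacytoid cells, and it had the fewest reads of the set. It had 122, 182 and 76 counts (4.74, 5.31 and 2.90 CPM) in the AMLE libraries, against 129, 88 and 80 counts (4.10, 3.09 and 2.76 CPM) in the DMSO libraries. The groups overlapped, since AMLE replicate 3 was lower than DMSO replicates 1 and 2. The means were 4.31 ± 1.26 CPM in AMLE and 3.31 ± 0.700 CPM in DMSO (SD, n = 3 each). The log2 fold change was 0.38, with a 95% interval from -0.21 to 0.98 (edgeR adjusted p = 0.248). Without AMLE replicate 3 it was called higher, at 0.61 (edgeR adjusted p = 0.0291), and likewise without both libraries numbered 3, at 0.49 (adjusted p = 0.0368).

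Runx3 encodes a Runt-domain protein that carries responses to TGF-beta in dendritic cells and acts in T and NK cells. It had 118, 123 and 137 CPM in the AMLE libraries, against 87.8, 91.5 and 93.5 CPM in the DMSO libraries. The groups did not overlap, and AMLE replicate 3 was the highest library. The means were 126 ± 10.0 CPM in AMLE and 90.9 ± 2.88 CPM in DMSO (SD, n = 3 each), a log2 fold change of 0.47 ± 0.07 (SE; edgeR adjusted p = 0.00114). The outer of its 2 annotated starts, at chr4:135120395-135120644 on the plus strand of GRCm38.p6, is shown because it holds the RUNX letters TGTGGT at 2 places, both on the opposite strand, so that the strand shown reads ACCACA. Capitals mark these, which began 134 and 126 bases before the start, and an E-box at 233.
Runx3 outer start: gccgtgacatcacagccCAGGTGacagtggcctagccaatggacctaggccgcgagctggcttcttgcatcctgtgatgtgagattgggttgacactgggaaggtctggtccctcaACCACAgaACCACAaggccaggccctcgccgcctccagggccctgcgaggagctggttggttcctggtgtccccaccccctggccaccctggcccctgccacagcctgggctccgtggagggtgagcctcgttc

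**Figure D3:**
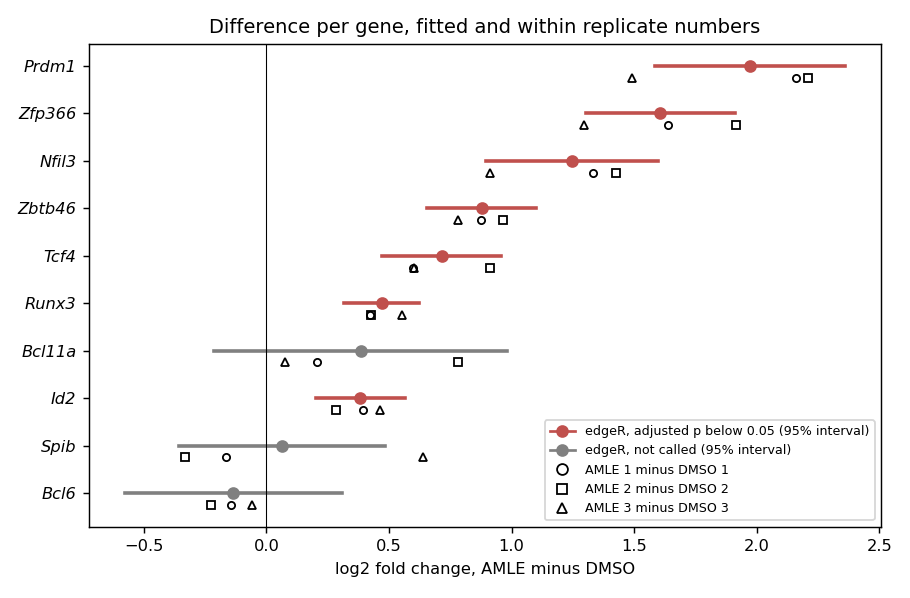
Log2 fold change of each factor (AMLE minus DMSO) from edgeR, with its 95% interval, together with the value of each pair of libraries of the same number. The intervals of 7 factors lie above 0, and those of Bcl11a, Spib and Bcl6 include 0.

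Between AMLE libraries the factors fell into different orders. Replicate 2 was the highest for 6 factors (Zbtb46, Zfp366, Prdm1, Tcf4, Bcl11a and Nfil3), and replicate 3 for the other 4 (Id2, Bcl6, Runx3 and Spib). Replicate 3 was the lowest for Prdm1, Bcl11a and Nfil3. In pairs of the same number, 8 of the 10 factors were higher in AMLE in all 3 pairs, Bcl6 was lower in all 3, and Spib was mixed. The share of all tested genes with the same direction in all 3 pairs was not computed, so these counts only describe the factors. For 7 of the 10 the AMLE libraries lay wholly above the DMSO libraries in CPM, against 28.3% of all tested genes, and for none did they lie wholly below, against 31.4%. As the factors were chosen with earlier results of these data known, this is not an independent comparison.

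**Figure D4:**
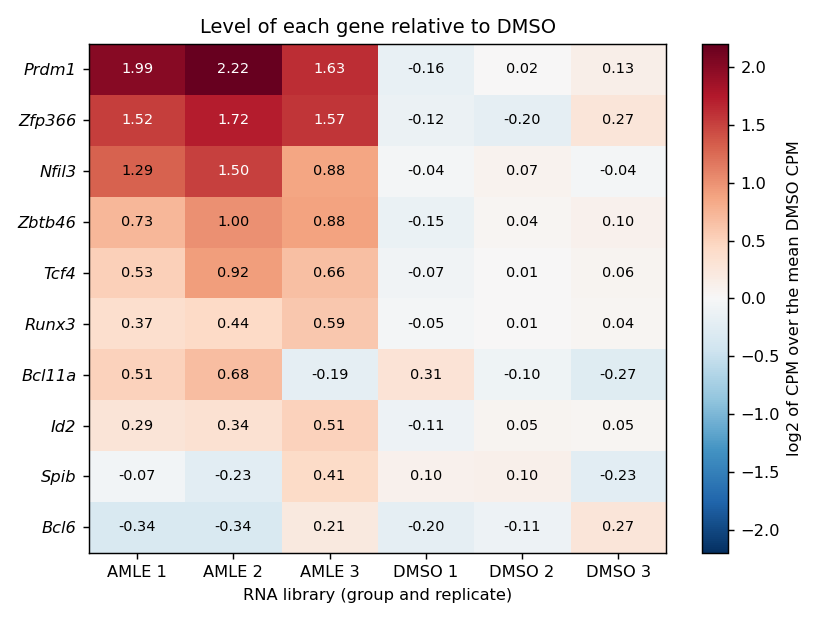
Level of each factor in each RNA library as log2 of its CPM over the DMSO mean, AMLE libraries on the left and DMSO libraries on the right. Prdm1 and Zfp366 have the darkest AMLE cells, and Bcl6, Spib and Bcl11a change sign between AMLE libraries.

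The relatives of the factors did not move as one, beside 23.0% of all tested genes that rose and 25.6% that fell. Of the E proteins and their inhibitors, 6 were tested: Id2 and Tcf4 rose, and Id3, another inhibitor of E proteins, fell to 1.77 ± 0.0246 CPM in AMLE, against 7.17 ± 0.786 CPM in DMSO (SD, n = 3 each; log2 fold change -2.01; edgeR adjusted p = 8.22e-05). Tcf3, Tcf12 and Id1 did not pass, with log2 fold changes of 0.09, -0.14 and -0.56. The count of this family that fell was 3 with the replicate number as a block, and 2 with DESeq2 or without the libraries numbered 3. Runx1 and Runx2 had log2 fold changes of 0.06 and 0.03 and did not pass, while Cbfb, the shared partner of the Runt proteins, fell to 86.4 ± 6.78 CPM in AMLE, against 131 ± 8.32 CPM in DMSO (SD, n = 3 each). In the subfamily of Spib, Spi1 (PU.1, a master regulator of myeloid cells) fell by 0.20 on the log2 scale (edgeR adjusted p = 0.023) and Spic rose at a low level, to 1.11 ± 0.418 CPM in AMLE, against 0.397 ± 0.0960 CPM in DMSO (SD, n = 3 each).

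NFIL3 shares its DNA site with the PAR proteins, which activate where it represses. Of these, Tef rose to 40.7 ± 0.567 CPM in AMLE, against 23.3 ± 1.27 CPM in DMSO (SD, n = 3 each), Hlf fell to 0.485 ± 0.144 CPM in AMLE, against 1.58 ± 0.505 CPM in DMSO, and Dbp did not pass (log2 fold change 0.17). Bcl11b, the paralog of Bcl11a and a factor of T cells, rose at a low level: 18, 54 and 13 counts in AMLE replicates 1 to 3, against 4, 5 and 2 counts in DMSO replicates 1 to 3. Without the libraries numbered 3, both Bcl11a and Bcl11b were called higher. Bcl6b was too low to test.

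Genes described as acting with or under the factors were listed by role, with earlier results of these data known. Their counts stand beside 23.0% of all tested genes that rose and 25.6% that fell. The 2 that rose of 7 TCF4 targets and the 2 that fell of 6 BLIMP-1 targets, given below, were near these shares. Of 10 described targets of BCL6 repression, 7 rose and 1 fell, and the median log2 fold change was 0.51. Beside Prdm1 and Id2, which are themselves in that list, those that rose included Ccnd2 (cyclin D2), Cd69, Ccl3 and Cdkn1b, by 1.16, 1.02, 0.87 and 0.45 on the log2 scale, and the chemokine gene Cxcl10 fell by 0.72. Of 6 described targets of BLIMP-1 repression, none rose, and Id3 and Myc fell, with a median of -0.21. Myc had 59.1 ± 15.9 CPM in AMLE and 97.0 ± 14.8 CPM in DMSO (SD, n = 3 each). Without the libraries numbered 3, 4 of the 6 were called lower. Of 7 tested targets of TCF4, Irf8 and Irf7 rose and none fell, with a median of 0.14. Irf8, needed for both cDC1 and plasmacytoid cells, had 803 ± 101 CPM in AMLE and 218 ± 16.4 CPM in DMSO (SD, n = 3 each). Without the libraries numbered 3, Spib was called lower in that list.

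Of the 6 tested genes placed on the path of ID2, NFIL3 and DC-SCRIPT, 5 rose (median 1.22): Dusp4, Irf8, Batf3, Il12b and Id2. Id2 is itself among the 10 factors, and 23.0% of all tested genes rose. Il12b, which encodes a subunit of interleukin 12, had 27.5 ± 4.40 CPM in AMLE and 12.3 ± 2.01 CPM in DMSO (SD, n = 3 each), while Il10 was too low to test, with 3, 3 and 4 counts in AMLE, against 0, 2 and 2 counts in DMSO.

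The genes that mark the lineages moved in both directions, beside 23.0% of all tested genes that rose and 25.6% that fell. Of 11 tested genes of cDC1, 6 rose and 4 fell (median 0.38). All 5 transcription factors in that list rose (Irf8, Batf3, Id2, Nfil3 and Zbtb46). Of these, Id2, Nfil3 and Zbtb46 are among the 10 factors themselves, so their rises are counted again here. Clec9a, a receptor for dead cells, also rose, to 2.29 ± 0.396 CPM in AMLE, against 1.16 ± 0.191 CPM in DMSO (SD, n = 3 each). The members that fell were Tlr3, Naaa, Itgae and Wdfy4, by 1.60, 1.36, 1.05 and 0.67 on the log2 scale. Xcr1, the chemokine receptor that defines cDC1, had 0.311 ± 0.194 CPM in AMLE and 0.465 ± 0.136 CPM in DMSO (SD, n = 3 each) and did not pass. Of 12 cDC2 genes, 3 rose and 4 fell (median 0.09), counts not far from the shares of all tested genes. Among these, Cd209a and Clec10a, both lectin receptors, and the transcription factor gene Klf4 fell by 4.94, 1.36 and 1.51 on the log2 scale, and Esam, an adhesion molecule, rose by 1.98.

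Of 14 tested plasmacytoid markers, 1 rose (Irf7) and 3 fell (Ly6c2, Ly6d and Atp1b1), with a median of 0.07. The part that fell was near the 25.6% of all tested genes that fell, and 23.0% of all tested genes rose. Siglech, the lectin that defines plasmacytoid cells in mice, had 15, 19 and 9 counts in AMLE replicates 1 to 3, against 9, 12 and 17 counts in DMSO replicates 1 to 3. These levels overlapped and lay below 1 CPM in every library. The summed level of the whole list was 555 to 672 CPM in AMLE, against 755 to 813 CPM in DMSO. That difference came from Ly6c2, the most abundant gene of the list, which is also among the monocyte markers. It had 189 ± 30.6 CPM in AMLE and 399 ± 28.3 CPM in DMSO (SD, n = 3 each). Without Ly6c2 the sums were not lower in AMLE. The part of such cells in the rise of Tcf4 was not tested.

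Genes of migratory, mature dendritic cells rose beside the factors: 14 of 15 rose and none fell (median log2 fold change 1.29). Of all tested genes, 23.0% rose and 25.6% fell. The list was chosen with earlier results of these data known, so its count is not independent of them. Cd200, Cd40, Ccl22 and Fscn1, which encodes the actin-bundling protein fascin, had log2 fold changes of 2.67, 2.45, 2.17 and 1.87. The exception was Ccl17 (0.81; edgeR adjusted p = 0.0557). Among 8955 genes with a mean of at least 10 CPM, the pattern most like that of Prdm1 over the 6 RNA libraries was that of Fscn1, by the root mean square difference of log2 CPM after centring (0.08 log2 units). That most like Nfil3 was Socs2, a suppressor of cytokine signalling from the same list (0.05). For Zbtb46 the nearest genes were Slc4a8, Strip2 and Aim1 (0.03, 0.04 and 0.05). The nearest for the others were Dscaml1 (Zfp366), Creld1 (Id2), Cyth1 (Tcf4), Pcgf5 (Runx3), Lsr (Bcl6), Clec4d (Spib) and Gria3 (Bcl11a). Even Spib, which did not pass the test, had a Pearson correlation of 0.954 with its nearest gene. The closest of 8955 genes over only 6 libraries thus shows no link by itself.

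The label of the cells was checked against 12 genes of GM-CSF-grown dendritic cells, and all were present. Itgax (CD11c) had 688 ± 78.6 CPM in AMLE and 708 ± 101 CPM in DMSO, and Cd74, the invariant chain, had 3203 ± 322 CPM in AMLE and 3930 ± 885 CPM in DMSO (SD, n = 3 each). Of the 12, 5 rose (Flt3, Ccr7, Cd86, Cd80 and Csf2rb) and 1 fell (H2-Ab1), while the count that fell was 5 with the replicate block and 4 without the libraries numbered 3. Among all tested genes, 23.0% rose and 25.6% fell in the main fit.

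Markers of several other cell types differed between the same libraries, in which 23.0% of all tested genes rose and 25.6% fell. Of 10 tested macrophage markers 7 fell and 1 rose, and the list summed to 875 to 1535 CPM in AMLE, against 1617 to 1984 CPM in DMSO (median log2 fold change -1.93). The complement genes C1qa, C1qc and C1qb and the scavenger receptor gene Cd163 fell, with log2 fold changes of -4.99, -4.55, -4.52 and -3.90. Of 11 markers of neutrophils and their precursors 8 fell and none rose (1 rose with the replicate block or without the libraries numbered 3), with sums of 9130 to 12674 CPM in AMLE, against 13713 to 21790 CPM in DMSO (median log2 fold change -1.77). The granule protein genes Elane, Mpo, Prtn3 and Camp fell, with log2 fold changes of -4.62, -3.01, -2.48 and -2.34. Of 8 monocyte markers 2 fell, a share like the 25.6% of all tested genes (4 fell with the replicate block, 5 without the libraries numbered 3), with sums of 718 to 891 CPM in AMLE, against 1320 to 1469 CPM in DMSO. The most abundant genes of the macrophage, neutrophil and monocyte lists were Csf1r (932 ± 289 CPM in AMLE and 1061 ± 72.1 CPM in DMSO, not called), S100a9 (5697 ± 1089 CPM in AMLE and 7743 ± 1918 CPM in DMSO, not called) and Ccr2 (355 ± 76.4 CPM in AMLE and 637 ± 83.0 CPM in DMSO, which fell; SD, n = 3 each). All 8 proliferation genes fell, with sums of 267 to 388 CPM in AMLE, against 1214 to 1384 CPM in DMSO.

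Other lists held more genes that rose than fell, or none called, beside 23.0% of all tested genes that rose and 25.6% that fell. Of 9 markers of mast cells and basophils 5 rose and none fell (8 rose with the replicate block or without the libraries numbered 3, and 1 fell with DESeq2 or without those libraries), with sums of 403 to 770 CPM in AMLE, against 260 to 423 CPM in DMSO. Of 5 eosinophil markers 2 rose (4 without the libraries numbered 3), with sums of 1752 to 2308 CPM in AMLE, against 1267 to 1937 CPM in DMSO. Of 6 tested T and NK cell markers 2 rose and 1 fell (4 rose without the libraries numbered 3), with sums of 29.9 to 36.5 CPM in AMLE, against 16.8 to 20.6 CPM in DMSO. No B cell marker of 7 tested was called, and these summed to 38.0 to 54.8 CPM in AMLE, against 33.1 to 49.9 CPM in DMSO. The most abundant genes of these 4 lists were Prss34 (181 ± 61.0 CPM in AMLE and 115 ± 39.1 CPM in DMSO), Prg2 (1607 ± 296 CPM in AMLE and 1168 ± 200.2 CPM in DMSO), Tcf7 (24.5 ± 0.726 CPM in AMLE and 13.4 ± 1.34 CPM in DMSO) and Cd22 (11.7 ± 3.43 CPM in AMLE and 9.43 ± 2.68 CPM in DMSO; SD, n = 3 each), of which Tcf7 rose and the others were not called. No listed marker was at 0 in all libraries. The part of each of these cell types in the changes of the factors was not tested.

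Open chromatin was compared as the presence of the authors' peaks. The 4 lists held 15805 and 15597 intervals in AMLE replicates 1 and 2, against 18460 and 19225 in DMSO replicates 1 and 2, and were joined into 24542 regions. With 2 libraries a side an exact permutation p cannot go below 0.333, so no test was made. Within the 10 genes or 10 kb of them lay 41 regions, of which AMLE replicates 1 and 2 held 25 and 25, against 27 and 30 in DMSO replicates 1 and 2. Of the 41, 15 (36.6%) were present in all 4 libraries, against 49.0% of all regions. In 1 library alone were 13 (31.7%), against 28.8% of all regions. Only 1 (2.44%) was in both AMLE and no DMSO library, against 0.46% of all regions, and 2 (4.88%) were in both DMSO and no AMLE library, against 5.95%.

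The single AMLE region lay at Id2, at chr12:25092384-25092944 (mm10), 3.43 kb downstream of its start and past the end of the gene. The authors' fold enrichment there was 2.21 and 2.78 in AMLE replicates 1 and 2, with −log10 q of 1.44 and 4.12. These are low values, since the lists begin at a −log10 q of 1.30, and the region was not counted when at least 3 was required. The DMSO regions were at Zbtb46 (chr2:181381816-181382413), where a start of the neighbouring gene Lime1 lies within 1 kb, and in Bcl11a (chr11:24141569-24141931), 65.2 kb above the lower end of its span. Their fold enrichments were 2.89 and 4.16 for the Zbtb46 region and 3.97 and 6.17 for the Bcl11a region in DMSO replicates 1 and 2. The −log10 q were 1.39 and 4.08 for the Zbtb46 region and 2.83 and 7.30 for the Bcl11a region. Neither region was thus counted when at least 3 was required. In all, 6 of the 41 regions lay within 1 kb of a start of another gene.

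By gene, all regions at Prdm1 (2 of 2), 3 of 4 at Runx3, 4 of 8 at Zbtb46, 2 of 4 at Nfil3, 1 of 2 at Id2, 2 of 6 at Bcl6 and 1 of 6 at Tcf4 were in all 4 libraries. None of the 3 at Zfp366, the 4 at Bcl11a and the 2 at Spib was. The whole promoter window of the RefSeq table, which takes in the 250 bases before the start, was compared with the regions. It overlapped a region of all 4 libraries at Id2, Prdm1, Bcl6, Runx3 and Nfil3. These are 5 of the 8 factors in that table, against 28.7% of all its genes, unexpressed genes included. At Zbtb46, Bcl11a and Spib the window overlapped no such region. The table's start of Zbtb46 lies inside the gene's span of 122 kb, and that of Bcl11a also lies inside its span. Other starts of these genes were thus not examined. The regions nearest the lower end of the Bcl11a span were in 1 and 2 libraries.

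**Figure D5:**
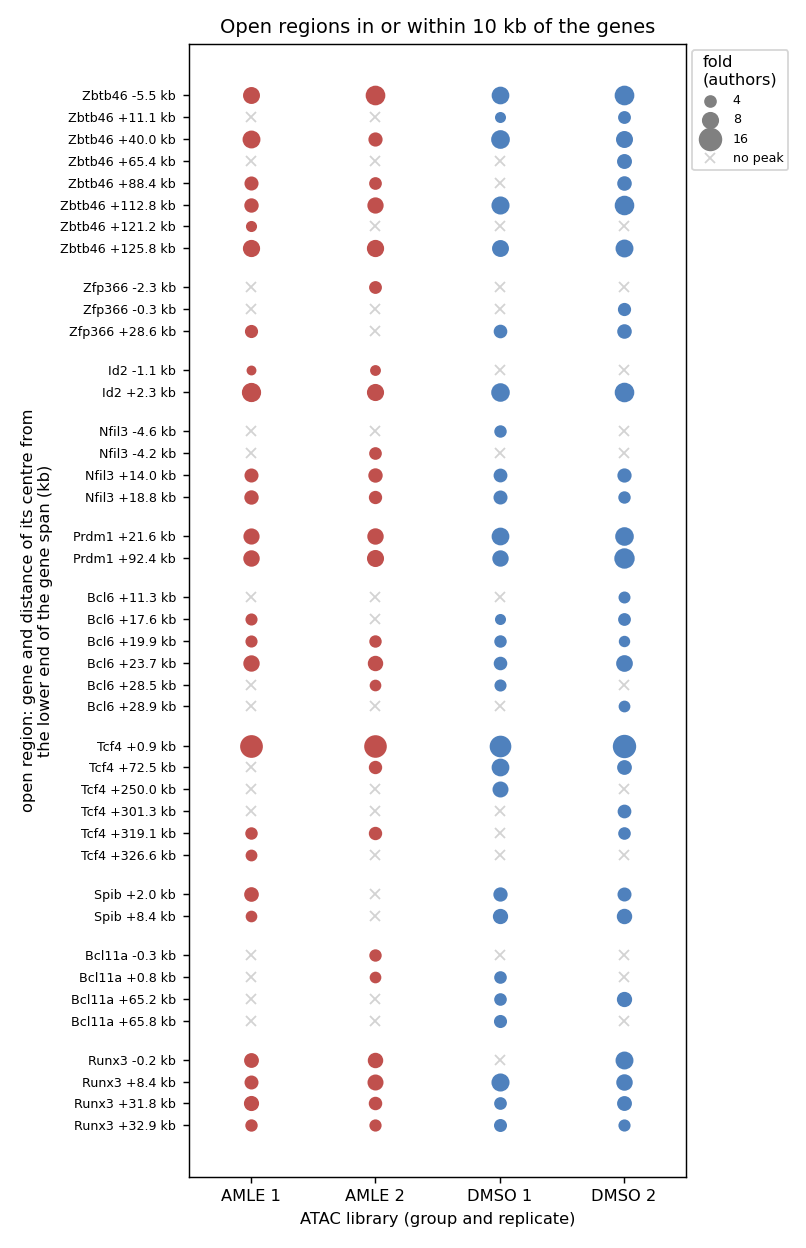
The 41 open chromatin regions in or within 10 kb of the factors, a row each, named by gene and by the distance in kb of the region's centre from the lower end of the gene's span, with AMLE libraries on the left and DMSO libraries on the right. Point size is the authors' fold enrichment in that library and a cross marks no peak. In all 4 libraries 15 rows are filled, and 1 of the 2 rows at Id2 is filled in both AMLE libraries and no DMSO library.

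The outer start of Runx3, with its 2 RUNX matches, was in AMLE replicates 1 and 2 and DMSO replicate 2, and its inner start was in all 4 libraries. The outer start of Bcl6 was in all 4 libraries, and no region lay over the inner start with the BCL6 letters.

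The motifs were searched on both strands in 10 windows of the 8 factors. TGTGGT was in 1 window, against 14.0% of all promoters, CAGGTG in 3 (Prdm1, Runx3 and Zbtb46), against 17.2%, and GAGGAAG in 2 (Prdm1 and Bcl6), against 10.6%. TGANTCA was in 2 (Prdm1 and Zbtb46), against 6.75% of all promoters, and TTCCTNGAA in 1, against 1.31%. The letters of the NFIL3 site (TTANGTAA), the BLIMP-1 site (AGNGAAAG) and an NF-kB site were in none, against 2.06%, 7.30% and 1.21%. A match describes the letters in these windows and shows no binding.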

How the data were processed

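The authors deposited raw read counts per gene symbol from stranded poly(A) RNA libraries, with totals of 26010455 to 34208286 per library, and ATAC peak lists with a fold enrichment (a ratio) and a −log10 q per summit, as read from the values. Per the submitters' processing notes, STAR 2.7.11b, Bowtie2 2.4.4, MACS3 3.0.0a7 and the build mm10 were used. Which counting tool, strand setting, annotation and peak settings applied is not given in the sources used here; overlapping or antisense genes could share reads.

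The counts were tested with edgeR 4.0.16 (TMM factors, minimum count 10, robust quasi-likelihood F test, two-sided). CPM are counts over the effective library total, and intervals are 95%. DESeq2 1.42.0, limma-voom 3.58.1, no filter, other scalings, a replicate block and leaving out libraries were alternatives. The steps were tested on simulated data. Same-numbered AMLE and DMSO libraries deviated from their group means together. The correlations over 13075 genes were 0.292, 0.280 and 0.431 for numbers 1 to 3, against -0.310 to 0.110 for other numbers. Deviations within a group cancel out, so these values are not independent, and number 3 had the highest. No label states that the numbers pair the libraries, and these values do not settle it. The main fit and the permutation tests are unpaired, and the paired ones are alternatives. ATAC summits were merged and counted as shared at an overlap of 1 base. Levels of the factors were not ordered between genes, because no transcript lengths were at hand. The most abundant gene of a list is by mean CPM alone.

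The 10 factors and all gene lists were chosen with earlier results of these data known. The rule named the 10 factors, the gene most like each (3 for Zbtb46), their family members, up to 4 genes per list with the largest called changes at a mean of at least 1 CPM, and the most abundant gene of each marker list. Other genes, such as Siglech, Xcr1 and Myc, were named after their values were seen.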

Additional observations from a re-analysis of the deposited data

How the results depend on the processing

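The 7 factors called higher kept their direction and their call in all 15 alternatives to the edgeR fit, the highest adjusted p being 0.0246 for Id2 without DMSO replicate 1. The count of factors called higher was 7 throughout, except 8 when AMLE replicate 3 was left out and 8 when both libraries numbered 3 were, where Bcl11a was called (0.61 and 0.49), and 1 factor was called lower without both, which was Spib at -0.24. The Spib log2 fold change also reversed without AMLE replicate 3 (-0.13) and without DMSO replicate 3 (-0.04), and that of Bcl6 without DMSO replicate 3 (0.019). Leaving out single libraries gave -0.13 to 0.20 for Spib, -0.33 to 0.019 for Bcl6 and 0.21 to 0.61 for Bcl11a. With the replicate number as a block, 7 factors were called higher and no factor changed its call (adjusted p = 0.0862 for Bcl11a and 0.0702 for Bcl6 by edgeR). The 3 count ratios kept their direction. Compared within pairs, each had an exact permutation p of 0.25, the smallest that 3 pairs can give. Of 138 counts over gene lists under alternatives, 117 stayed within 1.5 times and 21 did not. The causes were not tested.

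The ATAC counts moved more. Regions in both AMLE and no DMSO library numbered 0 at a −log10 q of at least 3 or of at least 5 (0.31% and 0.249% of all regions) and 4 by the authors' consensus lists (4.57% of all regions). Regions in both DMSO and no AMLE library numbered 1 at a −log10 q of at least 3 (7.27% of all regions) and 7 by the consensus lists (21.7% of all regions). The 1 region at that limit was neither of the 2 named above. It lay at Spib, where the only AMLE peak, in replicate 1, had a −log10 q of 2.13. Leaving out 1 library gave 1 to 4 regions in AMLE alone, where the share over all regions was 1.36% to 6.52%, and 3 to 7 in DMSO alone, where it was 10.4% to 17.7%. The shares over all regions, which were 0.46% and 5.95% before these changes, thus moved with the consensus lists and with the left-out libraries as well. Regions in all 4 libraries numbered 28 within 50 kb. The level order of the factors was not run, for lack of transcript lengths. The depth of the ATAC libraries is unknown.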

Other observations

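A few genes of T and NK cells were picked after their values were seen, and they do not stand for the list. Of its 6 tested genes, 2 rose and 1 fell, as given above. Cd3e, a subunit of the T cell receptor complex, had 8, 55 and 9 counts in AMLE replicates 1 to 3, against 5, 8 and 0 counts in DMSO replicates 1 to 3, and was too low to test. Lck, its kinase, had 70, 151 and 56 counts in AMLE replicates 1 to 3, against 43, 39 and 29 counts in DMSO replicates 1 to 3, and rose by 1.32 on the log2 scale (edgeR adjusted p = 0.00988). AMLE replicate 2 had the highest count of both. It also had the highest total, 34208286 counts, against 26010455 and 26325173 in AMLE replicates 1 and 3. Tcf7, of the same list, had a small spread over the AMLE libraries, as given above. Any part of T cells in the levels of the factors was not tested. The NK cell gene Ncr1 had 2, 1 and 0 counts in AMLE, against 0, 1 and 0 counts in DMSO.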
